A study of Mus musculus with 26 samples.

Results

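Serum response factor (SRF) and 9 genes tied to it through actin were followed in the mouse choroid plexus (ChP), the secretory epithelium of the brain ventricles with its vascular stroma. The 10 members were taken by symbol: Srf, its coactivators Mrtfa and Mrtfb, the matricellular genes Ccn1 and Ccn2, the adhesion gene Vcl, the contractile genes Tagln and Acta2, and the cytoplasmic actins Actb and Actg1. All 10 were found among the 55416 genes listed, and all 10 were among the 13697 genes tested, those with a mean of at least 1 CPM (read counts scaled to library size) in both Ctrl and SCNx. ChP of the 4th ventricle came from 12 sham-operated mice (Ctrl) and 12 mice whose suprachiasmatic nuclei, the central circadian pacemaker of the brain, had been destroyed electrolytically (SCNx). All 24 were adult C57Bl6J males, taken every 4 h from CT0 to CT44 in constant darkness with 1 mouse per group and time. A library is therefore 1 mouse, and it is named by its group and time. A further 2 adult males carried FoxJ1-ERT2-Cre+/-; Bmal1fl/fl (KO) and received tamoxifen in the diet, 1 taken at ZT7 (day) and 1 at ZT18 (night) of a light-dark cycle. Cre in this line is driven in cells with motile cilia, so the deletion is not limited to ChP and is not directed at smooth muscle or stroma, where some members are known to be expressed, and no mouse of that line without Cre or without tamoxifen was analyzed here.

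SRF is a transcription factor that binds the CArG box, and its partners decide which genes it activates. Monomeric actin holds the coactivators MRTF-A and MRTF-B in the cytoplasm. When actin polymerizes, for instance after a serum signal, the coactivators enter the nucleus and raise cytoskeletal and contractile genes, actin genes included. YAP and TAZ, which act through TEAD factors, respond to the same mechanical state of the cell and share targets such as Ccn1 and Ccn2. In cultured cells and in liver this route carries cues from the blood to clock genes, which is why its members are of interest in a tissue that lies between blood and cerebrospinal fluid.

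The promoter windows of RefSeq (mouse assembly GRCm38.p6, from 250 bases before to 50 bases after an annotated transcription start, so that each holds the beginning of the first exon) were available for 7 of the 10 members, with 10 windows in all. Windows of Ccn2, Tagln and Actb were not analyzed here. The CArG box was searched in these windows in its strict form CCWWWWWWGG, with W for A or T, which reads the same on both strands. Looser forms were not searched, so a window without a match, that of Acta2 included, may hold one. The TEAD motif GGAATG on both strands and the E-box CACGTG, the motif bound by clock factors, were searched too. No letters were shared between matches of different motifs. A CArG box of the strict form was found in 3 of the 10 windows, those of Srf, Vcl and Actg1, and in 1.63% of the 32851 windows of all genes. These 3 are shown because they hold the strict form of the element that links a member to SRF, with these CArG boxes in capitals, 5′ to 3′ on the strand of the gene.
Srf, chr17:46556113-46556412, minus strand: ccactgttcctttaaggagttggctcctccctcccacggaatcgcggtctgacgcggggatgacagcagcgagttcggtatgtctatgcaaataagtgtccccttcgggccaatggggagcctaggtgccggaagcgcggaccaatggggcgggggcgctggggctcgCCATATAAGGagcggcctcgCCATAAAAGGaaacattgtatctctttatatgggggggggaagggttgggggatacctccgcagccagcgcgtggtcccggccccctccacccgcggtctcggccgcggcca
Vcl, chr14:20929148-20929447, plus strand: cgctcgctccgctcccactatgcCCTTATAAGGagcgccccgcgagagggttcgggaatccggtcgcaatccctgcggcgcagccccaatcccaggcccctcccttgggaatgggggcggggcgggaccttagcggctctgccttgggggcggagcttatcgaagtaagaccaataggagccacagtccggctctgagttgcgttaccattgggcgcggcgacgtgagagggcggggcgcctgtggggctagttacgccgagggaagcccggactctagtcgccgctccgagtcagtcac
Actg1, chr11:120348446-120348745, minus strand: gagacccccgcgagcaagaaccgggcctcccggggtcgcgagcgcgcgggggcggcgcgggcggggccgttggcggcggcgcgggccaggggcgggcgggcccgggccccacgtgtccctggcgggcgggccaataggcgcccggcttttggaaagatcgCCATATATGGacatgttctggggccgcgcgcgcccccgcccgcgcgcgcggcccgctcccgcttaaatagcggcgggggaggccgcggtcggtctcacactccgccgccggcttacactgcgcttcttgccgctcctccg
The boxes of Srf began 82 and 62 bases before the start, that of Vcl 227 bases before it and that of Actg1 90 bases before it. The TEAD motif was present in 4 of the 10 windows, 1 each of Mrtfb, Ccn1, Vcl and Acta2, against 14.7% of all windows. The E-box was present in 1, that of Actg1 (141 bases before the start), against 7.15% of all windows. A match of letters is a description of the window and no evidence of binding.

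The Ctrl and SCNx libraries held between 38751162 and 49527614 estimated counts, and the KO libraries 17425176 and 18059213. ChP epithelial markers were abundant throughout, with a summed level of 142453 to 166157 CPM in Ctrl and 105245 to 166904 CPM in SCNx. In KO the sum was lower, at 78824 to 90145 CPM. Astrocyte markers summed to 710 CPM in Ctrl CT4 and 932 CPM in SCNx CT32, against medians of 55.5 and 51.0 CPM in Ctrl and SCNx. Hepatocyte markers summed to 1969 CPM in Ctrl CT16 and 10752 CPM in SCNx CT0, against medians of 2.33 and 4.27 CPM. Macrophage and blood markers summed to 4881 CPM in SCNx CT44, against a median of 419 CPM in SCNx. For the members and, by r, their pairs, a call that changes without the first 4 of these libraries is given both ways. The calls of list and marker genes and the relations to marker sums were not rerun without these 4. Bmal1, listed as Arntl and deleted in KO, ranged from 2.01 to 39.4 CPM in Ctrl and stood at 11.01 CPM (ZT7) and 8.97 CPM (ZT18) in KO, as a count over the whole gene that includes any exons left by the deletion.

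Ccn2 was the one member with a 24 h rhythm in Ctrl. It rose in the subjective day, peaked near CT13.2 and was lowest in the libraries taken at CT0 and CT24, with a fitted peak 2.11 times its trough. None of the 10 members had a rhythm in SCNx, none was called for a change of its mean level after the lesion, and none for a difference of its rhythm between the groups, at an adjusted p under 0.05. Contractile Acta2 and Tagln moved together from library to library, up to 8.34-fold and 8.49-fold within Ctrl. The smooth muscle genes Myh11 and Lmod1 shared their highest library in each group. In these tests (edgeR's quasi-likelihood F test, Benjamini-Hochberg adjustment over 13697 genes) 1 of the 10 members was called rhythmic in Ctrl, where the share of all genes called was 10.7%. An unadjusted p under 0.05 was reached in Ctrl by 3 members (Ccn2, Srf and Actg1), against 24.8% of all genes, so the count for the members is near that of the background. The amplitudes given below are the log2 distance from the mean of the fitted curve to its peak. The SE of an amplitude comes from a separate least-squares fit of log2 CPM, with the residuals of that group alone. The edgeR p-values rest on another estimate of the spread, so the SE and p of a gene need not match.

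**Figure D1:**
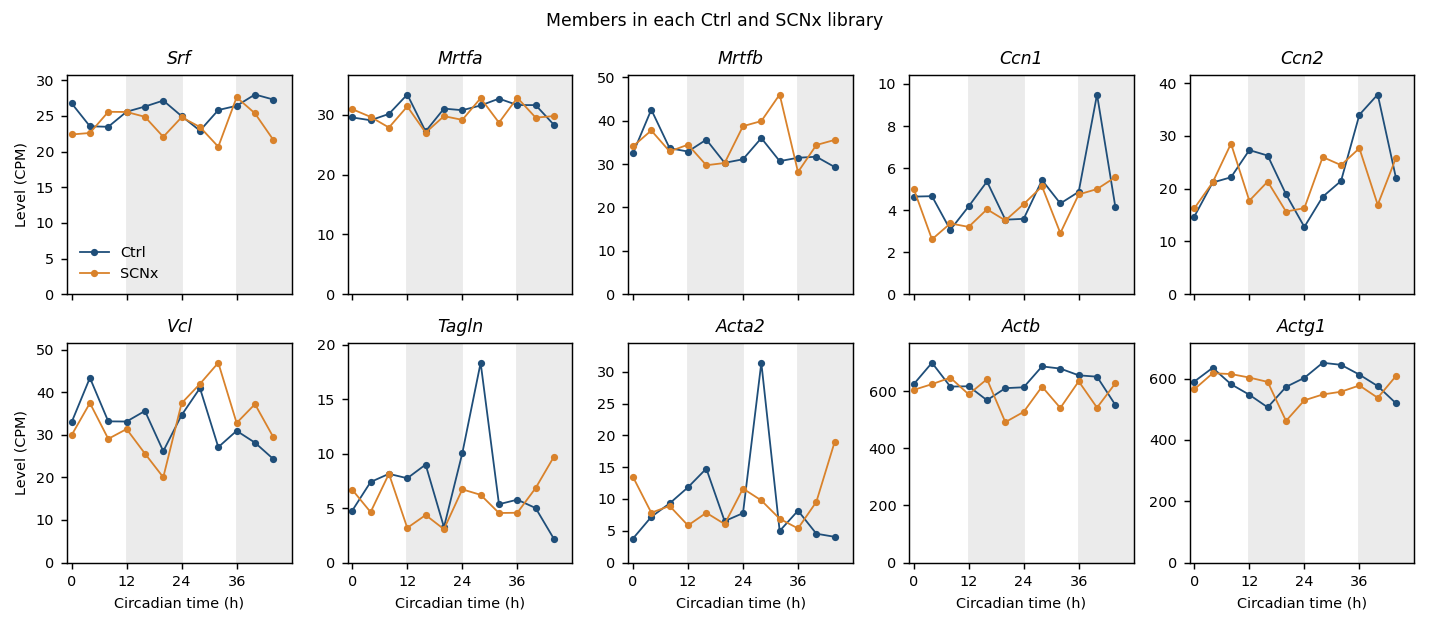
Level in CPM (vertical axis, from 0) against circadian time in h (horizontal axis) for the 10 members, with 1 point per mouse and lines joining the mice of Ctrl (blue) and SCNx (orange), subjective night shaded. Ccn2 in Ctrl shows a maximum in each of the cycles (27.3 CPM at CT12 and 37.8 CPM at CT40), and Acta2 and Tagln show a single Ctrl library, CT28, far above the rest.

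Ccn2 (ENSMUSG00000019997, also known as Ctgf) encodes a secreted matricellular protein that is a classical target of YAP and of SRF. In Ctrl its level was 14.7 CPM at CT0, 21.2 at CT4, 22.2 at CT8, 27.3 at CT12, 26.3 at CT16 and 18.9 at CT20. In the next cycle it was 12.8 CPM at CT24, 18.5 at CT28, 21.5 at CT32, 34.01 at CT36, 37.8 at CT40 and 21.96 at CT44. Both cycles thus started at their lowest value and were highest in the early subjective night (CT12 and CT16, then CT36 and CT40), with the higher values in the second cycle. The fitted amplitude in Ctrl was 0.54 ± 0.096 on the log2 scale (SE, 12 mice), above that of 94.9% of the genes tested (adjusted p = 0.00574, edgeR). A rank test of the eJTK type, which asks only for the order of the values, also called it (tau = 0.826, adjusted p = 0.0323, 200000 draws). The call was made in all 34 alternative fits, with an adjusted p of at most 0.0237 among the edgeR, limma and DESeq2 fits and an amplitude of 0.47 without Ctrl CT40.

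In SCNx the highest library was CT8 in the first cycle and CT36 in the second. Ccn2 was there 16.3 CPM at CT0, 21.2 at CT4, 28.5 at CT8, 17.7 at CT12, 21.3 at CT16 and 15.7 at CT20. The second cycle gave 16.3 CPM at CT24, 26.0 at CT28, 24.5 at CT32, 27.7 at CT36, 16.9 at CT40 and 25.9 at CT44. The values of both groups overlapped over most of their range, with 2 Ctrl libraries (CT36 and CT40) above every SCNx library and 2 (CT0 and CT24) below every SCNx library. The SCNx amplitude was 0.25 ± 0.12 (SE) with a fitted peak at CT8.70 (adjusted p = 0.391, edgeR), and it was 0.39 without SCNx CT44 (adjusted p = 0.153). None of the 10 members was called in SCNx, where the share of all genes called was 0%. In SCNx 2032 genes had an unadjusted p under 0.05, and DESeq2 called 432. The difference of the Ccn2 rhythm between the groups, a log2 vector of 0.50, gave p = 0.0105 unadjusted and p = 0.172 adjusted, so that it was not called. For the difference the share of all genes called was 2.12%, and 15.1% had an unadjusted p under 0.05, among the members Ccn2 alone. Without the 4 libraries rich in astrocyte or hepatocyte markers the difference was called (adjusted p = 0.0488), and without SCNx CT44 it was 0.55 (adjusted p = 0.0606, both edgeR).

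Over the 24 libraries, after removal of the group means, the genes outside the members with the pattern most like that of Ccn2 among the 13697 tested were Etv5 (Pearson r = 0.826, Spearman rank coefficient rs = 0.853), an ETS transcription factor induced by FGF and ERK signaling, the clock repressor Cry2 (r = 0.809, rs = 0.748) and Lonrf1 (r = 0.807, rs = 0.762). They were picked for this likeness, so no test applies.

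Ccn1 (ENSMUSG00000028195), the paralog known as Cyr61 and an immediate early target of the same factors, was low. In Ctrl it ranged from 3.06 CPM (CT8) over a median of 4.48 to 9.50 CPM (CT40), and the next highest library held 5.43 CPM (CT28). In SCNx it ranged from 2.61 CPM (CT4) over a median of 4.16 to 5.57 CPM (CT44). Its highest Ctrl library was also that of Ccn2, and the groups overlapped otherwise. The amplitude was 0.24 ± 0.17 in Ctrl (adjusted p = 0.526, edgeR) and fell to 0.027 without Ctrl CT40, so that its size rested on this 1 mouse. In SCNx it was 0.25 ± 0.14 (adjusted p = 0.595, edgeR).

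Srf (ENSMUSG00000015605) itself varied little. It ranged in Ctrl from 22.9 CPM (CT28) over a median of 26.1 to 28.0 CPM (CT40) and in SCNx from 20.7 CPM (CT32) over a median of 24.1 to 27.6 CPM (CT36). Highest over lowest was 1.22-fold in Ctrl and 1.34-fold in SCNx, and the groups overlapped. In Ctrl the lowest values lay in the subjective day of both cycles (23.6 CPM at CT4, 23.5 at CT8 and 22.9 at CT28) and the fitted peak lay at CT17.4. The amplitude of 0.11 ± 0.023 (SE) gave p = 0.0325 before and p = 0.154 after adjustment (edgeR), and it was called in 2 of 34 alternative fits, one with each group fitted alone (adjusted p = 0.0317) and one without SCNx CT32 (adjusted p = 0.0402). In SCNx the amplitude was 0.091 ± 0.047 (adjusted p = 0.378, edgeR).

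Mrtfa (ENSMUSG00000042292) was the steadiest of the coactivators, with 27.3 to 33.4 CPM in Ctrl (median 30.9) and 27.0 to 32.9 CPM in SCNx (median 29.7). Its amplitude was 0.056 ± 0.034 in Ctrl and 0.022 ± 0.038 in SCNx, and no alternative called it. Mrtfb (ENSMUSG00000009569) ranged from 29.3 CPM (CT44) over a median of 32.1 to 42.5 CPM (CT4) in Ctrl and from 28.2 CPM (CT36) over a median of 34.4 to 46.03 CPM (CT32) in SCNx. Its highest libraries were those with the most astrocyte markers in either group. Its Ctrl amplitude was 0.099, and 0.039 without Ctrl CT4. In SCNx its amplitude of 0.17 ± 0.069 gave p = 0.0362 before and p = 0.303 after adjustment (edgeR).

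Vcl (ENSMUSG00000021823) encodes vinculin, which couples actin filaments to adhesions. It ranged in Ctrl from 24.3 CPM (CT44) over a median of 33.0 to 43.4 CPM (CT4), and in SCNx from 20.0 CPM (CT20) over a median of 32.1 to 46.9 CPM (CT32). The highest library of each group was again the one rich in astrocyte markers, and the next highest was CT28 in both (41.0 and 42.0 CPM). The amplitude was 0.20 ± 0.092 in Ctrl (adjusted p = 0.383) and 0.27 ± 0.12 in SCNx (adjusted p = 0.315, both edgeR). In SCNx 2 members (Mrtfb and Vcl) had an unadjusted p under 0.05, against 14.8% of all genes.

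**Figure D2:**
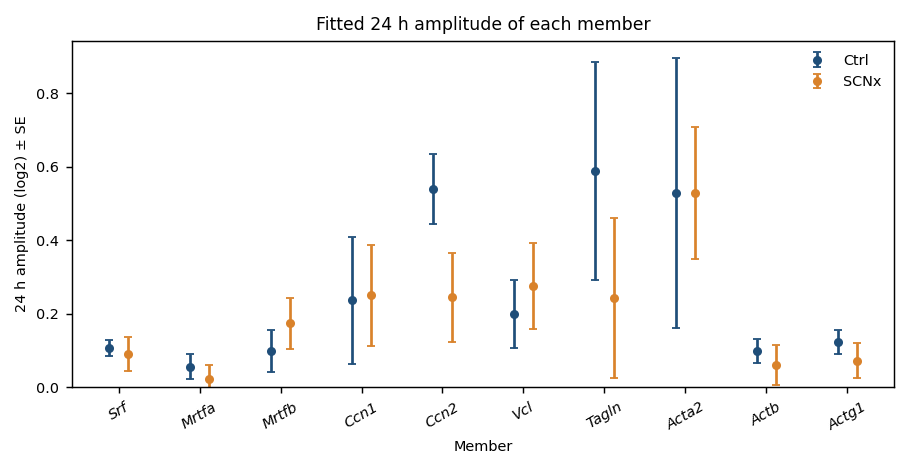
Fitted 24 h amplitude on the log2 scale (vertical axis, from 0) of each member (horizontal axis) in Ctrl (blue) and SCNx (orange), with bars of 1 SE from 12 mice per group. The SE is that of a separate least-squares fit and not the error behind the edgeR p-values. Ccn2 in Ctrl (0.54) has an error small against its size, while Acta2 and Tagln in Ctrl have amplitudes of like size with errors of 0.37 and 0.30, and bars that pass below 0 end at the axis.

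Acta2 (ENSMUSG00000035783) encodes smooth muscle alpha-actin, and Tagln (ENSMUSG00000032085) encodes transgelin, an actin-binding protein of smooth muscle. Both are textbook SRF targets that mark arterial smooth muscle. In Ctrl, Acta2 ranged from 3.77 CPM (CT0) over a median of 7.48 to 31.4 CPM (CT28), with 14.8 CPM in the next library (CT16). In SCNx it ranged from 5.37 CPM (CT36) over a median of 8.37 to 19.0 CPM (CT44). Tagln ranged in Ctrl from 2.16 CPM (CT44) over a median of 6.58 to 18.3 CPM (CT28), with 10.04 CPM in the next library (CT24), and in SCNx from 3.06 CPM (CT20) over a median of 5.42 to 9.73 CPM (CT44). The same libraries were highest for both genes, Ctrl CT28 and SCNx CT44, the latter being the library rich in macrophage and blood markers, and the groups overlapped. The Ctrl amplitudes of 0.53 ± 0.37 (Acta2) and 0.59 ± 0.30 (Tagln) lay above those of 94.7% and 95.6% of the genes tested, with adjusted p = 0.473 and p = 0.280 (edgeR). The amplitude of Tagln was 0.35 without Ctrl CT28 and 0.84 without Ctrl CT16, and that of Acta2 was 0.81 without Ctrl CT16. Without the 4 libraries rich in astrocyte or hepatocyte markers both amplitudes were 0.93, which was called for Tagln (adjusted p = 0.0486) and not for Acta2 (adjusted p = 0.0701, both edgeR). Without SCNx CT44 the SCNx amplitude of Acta2 was 0.39, against 0.53 with it, and r of Tagln and Acta2 over the other libraries was 0.817 (adjusted p = 0.00075, permutation), the latter a check added with the results in view.

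The smooth muscle myosin Myh11 followed the same libraries. It was highest in Ctrl CT28 (30.7 CPM, median 7.59) and in SCNx CT44 (23.5 CPM, median 13.2), and the smooth muscle leiomodin Lmod1 was highest there too (3.48 and 3.12 CPM). Of the other smooth muscle markers, Cnn1, below the minimum level, was highest in these libraries as well, but Des was not. Des was highest in Ctrl CT8 (8.24 CPM) and stood at 5.82 CPM in SCNx CT44, under its SCNx median of 7.1 CPM. Pericyte markers had other highest libraries, although Ctrl CT28 was high for them too. In SCNx CT44 Rgs5 stood at 107.9 CPM (SCNx median 162.7) and Kcnj8 at 3.17 CPM (SCNx median 3.97). Rgs5 reached 239 CPM in Ctrl CT8, 232 CPM in Ctrl CT28 and 225 CPM in SCNx CT24, and Kcnj8 6.92 and 7.21 CPM in CT8 of each group. Outside the members, the genes most like Acta2 across the 24 libraries were Myh11 (r = 0.900, rs = 0.867), Lmod1 (r = 0.843, rs = 0.822) and Pln (r = 0.799, rs = 0.724), the regulator of the calcium pump of muscle. Outside the members, those most like Tagln were the smooth muscle myosin light chain Myl9 (r = 0.855, rs = 0.811), the tyrosine kinase Bmx of arterial endothelium (r = 0.845, rs = 0.825) and the tropomyosin Tpm2 (r = 0.818, rs = 0.696). Genes named here as most like Acta2 or Tagln were picked for that likeness, so no test applies. In Ctrl CT24, the second highest Ctrl library of Tagln, Myh11 and Lmod1 stood at 4.49 and 0.845 CPM, under their Ctrl medians. In such tissue, fewer smooth muscle cells and less of these RNAs per cell cannot be told apart.

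**Figure D3:**
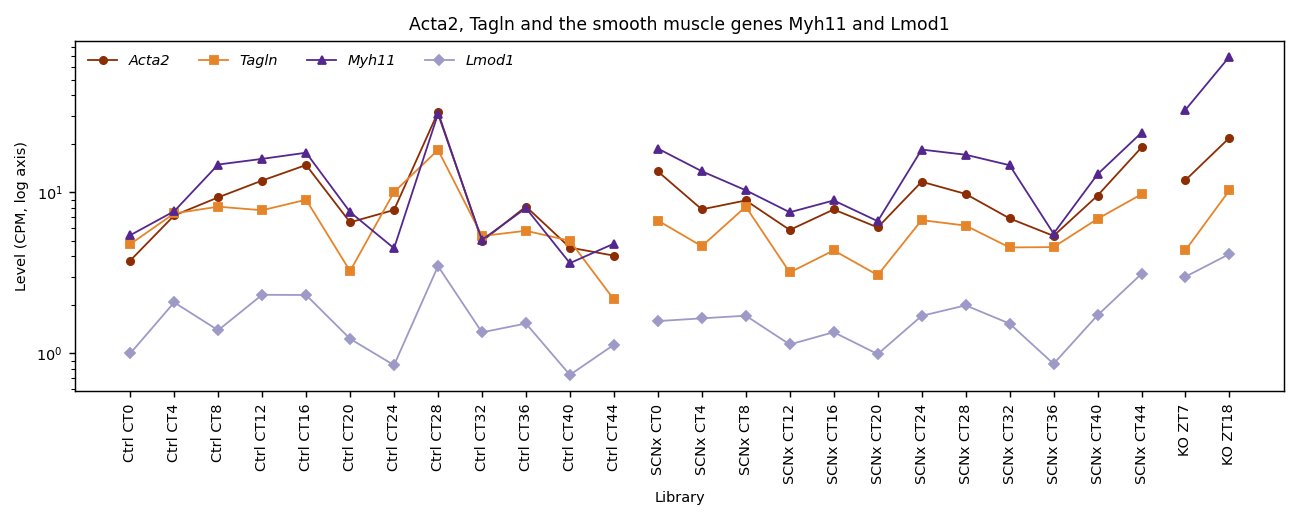
Level in CPM (vertical axis, logarithmic) of Acta2, Tagln, Myh11 and Lmod1 in each of the 26 libraries (horizontal axis), with lines joining the libraries of a group. The 4 genes share their highest Ctrl library (CT28) and their highest SCNx library (CT44), and all 4 are higher in KO ZT18 than in KO ZT7.

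The cytoplasmic actins were steady. Actb (ENSMUSG00000029580) ranged from 552 CPM (CT44) over a median of 621 to 700.3 CPM (CT4) in Ctrl and from 492 CPM (CT20) over a median of 611 to 648 CPM (CT8) in SCNx. Actg1 (ENSMUSG00000062825) ranged from 506 CPM (CT16) over a median of 586 to 652 CPM (CT28) in Ctrl and from 462 CPM (CT20) over a median of 571 to 617 CPM (CT4) in SCNx. SCNx CT20 was the lowest library for both, and the groups overlapped. The Ctrl curves peaked at CT6.33 (Actb) and CT5.16 (Actg1), with amplitudes of 0.099 ± 0.033 and 0.12 ± 0.032. Neither was called (adjusted p = 0.332 and p = 0.126, edgeR), and Actg1 had an unadjusted p of 0.0234. Reads that these near-identical genes share, also with processed pseudogenes, may have been divided between them by Salmon, so their separate levels are uncertain.

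No member was called for a difference of mean level between SCNx and Ctrl, in a comparison with times pooled that asked what the loss of the pacemaker changes overall. Among all genes the share called was 0%, with 1283 genes (9.37%) at an unadjusted p under 0.05 and 14 called by DESeq2, none of them a member. Srf was lower in SCNx, with 23.9 ± 2.05 CPM against 25.7 ± 1.65 CPM in Ctrl (SD, n = 12 mice each), and was the one member with an unadjusted p under 0.05 (log2 difference -0.10 ± 0.046, p = 0.0320, adjusted p = 0.495, edgeR). Ccn2 stood at 21.5 ± 4.85 CPM against 23.1 ± 7.31 CPM (log2 difference -0.10 ± 0.15). The log2 difference was -0.34 ± 0.26 for Tagln, -0.21 ± 0.16 for Ccn1 and 0.087 ± 0.071 for Mrtfb, each within 2 SE. Leaving out 1 library brought these to -0.12 (Ctrl CT28), -0.080 (Ctrl CT40) and 0.040 (SCNx CT32), and that of Ccn2 to -0.017 (Ctrl CT40). It lay between -0.094 and 0.033 for the other 5 members. The median over the 10 was -0.070, with 8 lower in SCNx, and the median over all genes tested was 0.011. The difference of Acta2 was -0.027 ± 0.30 and turned to 0.31 without Ctrl CT28.

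Members were then compared with each other over the 24 libraries, as deviations of log2 CPM from their group means, since members of one regulatory route could rise and fall together. Of 45 pairs, 5 had an adjusted p under 0.05 (permutation within groups, 100000 draws, two-sided), and 3 of them also by rank. Actb and Actg1 gave r = 0.876 and rs = 0.808, Tagln and Acta2 r = 0.833 and rs = 0.825, and Mrtfb and Vcl r = 0.818 and rs = 0.832. For each of these the permutation p was 1e-05, the smallest it can give, and the adjusted p was 0.00015, for r and for rs. Without the 2 libraries farthest from the median of the first gene, r was 0.802, 0.748 and 0.745, and the 3 pairs kept an adjusted p under 0.05 for r in Ctrl alone (r = 0.914, 0.826 and 0.880) and in SCNx alone (r = 0.854, 0.850 and 0.784). Libraries share time of day and may share tissue composition, so these correlations are not tests of a common regulator.

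Srf had a negative r with 5 of the 9 other members, and 1 of these pairs was called. This was the pair with Mrtfb (r = -0.608, permutation p = 0.0029, adjusted p = 0.0326; rs = -0.577, permutation p = 0.00512, adjusted p = 0.0576), with r = -0.402 without SCNx CT32 and SCNx CT36. With Acta2 it was r = -0.478 (permutation p = 0.0123, adjusted p = 0.0923) and rs = -0.525 (permutation p = 0.0120, adjusted p = 0.108). Without the 4 libraries rich in astrocyte or hepatocyte markers the pair of Srf and Acta2 passed (r = -0.638, adjusted p = 0.0152) and that of Srf and Mrtfb did not (r = -0.491, adjusted p = 0.154, permutation). In the same setting the pairs of Mrtfb with Acta2 (r = 0.560, adjusted p = 0.0152) and with Tagln (r = 0.520, adjusted p = 0.0456, permutation) passed as well. In Ctrl alone r of Srf was -0.776 with Vcl and -0.759 with Tagln (adjusted p = 0.02497 for both, permutation), but in SCNx alone it was -0.079 and -0.042 (adjusted p = 0.956 for both, permutation), and the difference between the groups was not tested. The fifth pair was Vcl and Tagln (r = 0.534, permutation p = 0.00517, adjusted p = 0.0465), with rs = 0.469 (permutation p = 0.0256, adjusted p = 0.161). Ccn2 and Ccn1 gave r = 0.360 and rs = 0.189 (permutation p = 0.0988 and p = 0.387, adjusted p = 0.322 and p = 0.829), and r was 0.171 without Ctrl CT40 and SCNx CT4.

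**Figure D4:**
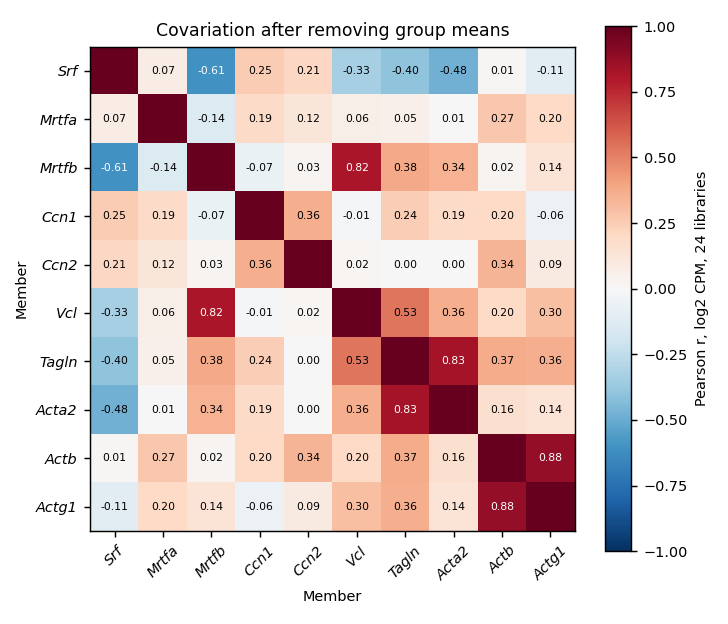
Pearson r of log2 CPM between each pair of the 10 members (both axes) over the 24 Ctrl and SCNx libraries after removal of group means, colored from -1 (blue) to 1 (red), with the value in each cell. Actb and Actg1, Tagln and Acta2, and Mrtfb and Vcl form the high pairs, and the row of Srf is negative with Mrtfb, Vcl, Tagln and Acta2.

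The members were set beside the summed level of markers of other cell types, in 50 relations chosen after the data had been seen. With the 10 smooth muscle and pericyte markers (197.5 to 478 CPM in Ctrl, 220.4 to 484 CPM in SCNx) Acta2 gave r = 0.637 (rs = 0.647), Mrtfb r = 0.614 (rs = 0.647) and Vcl r = 0.594 (rs = 0.566), with permutation p of 0.00114, 0.00095 and 0.00205 and adjusted p of 0.0095, 0.0095 and 0.0128 for r, and adjusted p of 0.0105, 0.0105 and 0.0333 for rs. Tagln gave r = 0.504 (adjusted p = 0.0721) and rs = 0.413 (adjusted p = 0.217, both permutation) and was not called. The other 3 were also called without Vtn, which hepatocytes express too and which stood at 156 CPM in Ctrl CT16 and 189 CPM in SCNx CT0. As a sum of CPM it weighs pericyte genes more than smooth muscle genes. Over the 24 libraries Rgs5 and Pdgfrb had means of 155 and 56.7 CPM, against 11.8 for Myh11 and 1.61 for Lmod1. With endothelial markers (41.3 to 124 CPM in Ctrl, 50.04 to 132 CPM in SCNx) r was 0.668 for Acta2, 0.639 for Vcl, 0.618 for Mrtfb and 0.534 for Tagln (adjusted p = 0.00925, 0.00925, 0.00979 and 0.0457, permutation). By rank, in the same order, rs was 0.657, 0.685, 0.759 and 0.514 (adjusted p = 0.0105, 0.00683, 0.0025 and 0.0667, permutation), so that Tagln was not called by rank. Srf was negative with both sums, without a call (r = -0.399 and -0.413, adjusted p = 0.143 and 0.139, permutation). Ccn2 gave r = 0.074 with the smooth muscle and pericyte sum (adjusted p = 0.867) and r = 0.479 with the fibroblast sum (permutation p = 0.0356, adjusted p = 0.127), which fell to 0.301 without Ctrl CT36 and Ctrl CT0. With astrocyte markers Mrtfb gave r = 0.551 but rs = -0.031 (adjusted p = 0.0454 and p = 1, permutation), and r was -0.291 without SCNx CT32 and Ctrl CT4. The part of cell composition in the levels of Mrtfb, Vcl, Acta2 and Tagln was not tested.

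Other genes of the route were read from fixed lists. Of 28 cytoskeletal and contractile MRTF-SRF targets, 25 were tested and 5 were rhythmic in Ctrl (20 were not called), against 10.7% of all genes, at phases spread over the day. The integrin Itga5 peaked at CT20.2 (amplitude 0.38 ± 0.060, adjusted p = 0.00128), alpha-actinin Actn1 at CT14.8 (0.26 ± 0.060, adjusted p = 0.0251) and the LIM protein Fhl2 at CT9.94 (0.46 ± 0.12, adjusted p = 0.0391, all edgeR). The myosin light chain kinase Mylk peaked at CT7.94 (0.38 ± 0.10, adjusted p = 0.0319) and the tropomyosin Tpm1 at CT6.12 (0.18 ± 0.050, adjusted p = 0.0278, both edgeR). The median amplitude of the 25 was 0.26 in Ctrl and 0.15 in SCNx, against 0.11 and 0.091 over all genes. Of the 28 genes 4 are also counted among the smooth muscle markers (Myh11, Des and Lmod1 tested, Cnn1 below the minimum level), so the list is in part a reading of that cell type.

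Of 10 TCF-SRF targets, the immediate early genes, 6 were tested and 1 was rhythmic in Ctrl, against 10.7% of all genes. This was the zinc finger gene Egr1 (peak CT5.40, amplitude 0.82 ± 0.19, adjusted p = 0.00910, edgeR). Fos, Fosb, Egr2 and Egr3 lay below the minimum level. Of the SRF cofactors Elk1, Elk3 and Elk4 were tested and none was called, and Myocd, the cofactor of smooth muscle, lay below the minimum.

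Of 21 YAP/TAZ targets, 19 were tested and 5 were rhythmic in Ctrl, against 10.7% of all genes. The ecto-5'-nucleotidase Nt5e peaked at CT2.14 (amplitude 0.49 ± 0.060, adjusted p = 0.000177) and differed between the groups (adjusted p = 0.00659, edgeR), with an amplitude of 0.15 ± 0.079 in SCNx. The other 4 peaked within the same hours of the late subjective day. They were the receptor kinase Axl (CT9.42, 0.26 ± 0.045, adjusted p = 0.000679), the growth factor binding gene Igfbp3 (CT9.24, 0.80 ± 0.27, adjusted p = 0.0267), the matrix gene Ccdc80 (CT8.72, 0.30 ± 0.089, adjusted p = 0.0420) and tissue factor F3 (CT8.58, 0.22 ± 0.060, adjusted p = 0.0280, all edgeR). Ccn2 peaked later than these 4, at CT13.2, and this difference of phase was not tested. Of the 1459 genes called rhythmic in Ctrl, 516 peaked between CT6 and CT12. The pericyte markers Kcnj8 (CT9.59) and Pdgfrb (CT7.48) were among them, and the part of cell composition in these phases was not tested.

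The Hippo-TEAD core (14 genes, 13 tested) had 1 rhythmic gene in Ctrl, Tead2 (peak CT20.5, amplitude 0.21 ± 0.041, adjusted p = 0.00404, edgeR). Among 20 regulators of actin assembly, all tested, 2 were rhythmic in Ctrl. The share of all genes called was 10.7%, so the counts of both lists are near that of the background. The formin Diaph1, which nucleates actin filaments, peaked at CT4.88 (0.20 ± 0.033, adjusted p = 0.00421) and differed between the groups (adjusted p = 0.0484, edgeR), with an amplitude of 0.061 ± 0.043 in SCNx. The actin monomer binding gene Cap1 peaked at CT13.7 (0.16 ± 0.027, adjusted p = 0.0244, edgeR). No gene of these 6 lists was called in SCNx or in the comparison of levels.

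In KO all 10 members were higher at night than by day, in a comparison of 1 mouse with 1 mouse that has no replicate and therefore no test, and the counting intervals overlapped for Mrtfb alone. Tagln was 4.37 CPM at ZT7 (exact 95% Poisson interval 3.42 to 5.49, counting error only) and 10.3 CPM at ZT18 (8.90 to 11.9), a 2.34-fold difference. Acta2 went from 11.9 CPM (10.3 to 13.7) to 21.8 CPM (19.8 to 24.0), 1.83-fold. Ccn1 went from 7.42 to 10.8 CPM and Ccn2 from 16.9 CPM (14.97 to 18.97) to 21.8 CPM (19.7 to 24.0), 1.45-fold and 1.29-fold. The other members differed less than Ccn1, with 1.34-fold for Mrtfa (23.3 to 31.3 CPM), 1.30-fold for Srf (18.8 to 24.4 CPM), 1.25-fold for Vcl (52.0 to 64.9 CPM), 1.23-fold for Actb (747 to 917 CPM), 1.101-fold for Actg1 (388 to 427 CPM) and 1.01-fold for Mrtfb (51.5 to 52.1 CPM).

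**Figure D5:**
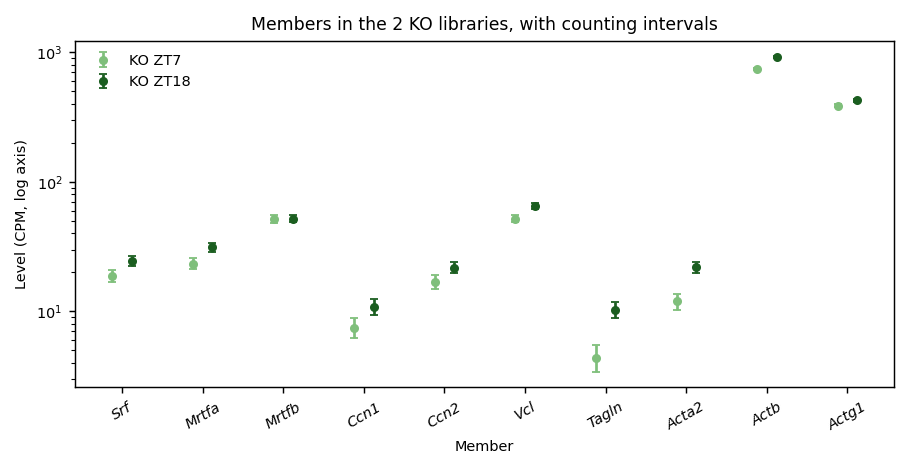
Level in CPM (vertical axis, logarithmic) of each member (horizontal axis) in KO ZT7 (light green) and KO ZT18 (dark green), 1 mouse each, with exact 95% Poisson intervals of the counts that leave out differences between mice. Tagln and Acta2 are the farthest apart, and the intervals of Mrtfb overlap almost fully.

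Tagln alone of the 10 passed a 2-fold difference, which 2.39% of the 15050 genes above the minimum level did in this direction. Over those genes 51.1% were higher at ZT18, with a median log2 difference of 0.0093. The smooth muscle genes Myh11 and Lmod1 went from 32.6 to 69.6 CPM and from 2.99 to 4.14 CPM. Pericyte genes went both ways. Rgs5 and Abcc9 went from 178 to 161 CPM and from 39.1 to 38.2 CPM. Kcnj8 rose from 2.33 to 4.25 CPM, Pdgfrb from 48.1 to 56.6 CPM, Notch3 from 16.1 to 26.0 CPM and Vtn from 23.8 to 46.1 CPM. The summed ChP epithelial markers went from 90145 to 78824 CPM and the smooth muscle and pericyte sum from 350.3 to 417 CPM. Astrocyte markers went from 818 to 891 CPM, sums of the size seen in the astrocyte-rich Ctrl CT4 (710 CPM) and SCNx CT32 (932 CPM). Fibroblast markers went from 390.2 to 486 CPM, endothelial markers from 95.9 to 125 CPM, neuron and cerebellum markers from 195 to 273 CPM and oligodendrocyte markers from 320.0 to 428 CPM. Their part in the members' values was not tested. KO and Ctrl differed in dissection, kit, light regime and tissue preservation, which cannot be told apart from genotype, so levels of the members were not compared between them.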

How the data were processed

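The authors mapped single-end reads to GRCm39 (Ensembl 104) with nf-core/rnaseq and deposited estimated counts per gene from Salmon 1.9.0, not normalized, which were rounded here. KO tissue was taken by laser capture and prepared with another kit. Genes were tested where their mean reached 1 CPM in both groups, with edgeR 4.0.16 (R 4.3.3, TMM, quasi-likelihood F test, Benjamini-Hochberg adjustment, threshold 0.05). One model held a mean, cosine and sine of 24 h per group, another a mean per group. All times are single mice, so p-values rest on the spread around 3 fitted terms per group. DESeq2 1.42.0, limma 3.58.1, a rank test, other minimum levels, a time block and leaving out libraries were the alternatives. Correlations were computed in Python 3.11.15 on log2 CPM (prior count 1). The fits were tested on simulated data. Counting error is given for the shallower KO libraries. Members and lists were chosen with earlier results of these data known. Named genes are the members, called list genes and the 3 genes most like Ccn2, Acta2 and Tagln. Markers were named where a member moved with their list.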

Additional observations from a re-analysis of the deposited data

Results flagged for a closer look

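Nt5e, Diaph1 and Pdgfra were picked out because their 24 h rhythms differed between Ctrl and SCNx by a test of the difference itself. For Nt5e the log2 difference of the fitted rhythm was 0.569 (adjusted p = 0.00659, edgeR), with amplitudes of 0.49 in Ctrl and 0.15 in SCNx. For Diaph1 it was 0.234 (adjusted p = 0.0484, edgeR), with amplitudes of 0.20 in Ctrl and 0.061 in SCNx. For Pdgfra, a fibroblast marker, it was 0.488 (adjusted p = 0.0142, edgeR), with amplitudes of 0.35 in Ctrl and 0.15 in SCNx. None of them is among the 10 members.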

How the results depend on the processing

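Ccn2 in Ctrl was called in all 34 alternatives run. The number of members called rhythmic in Ctrl was 2 without the 4 libraries rich in astrocyte or hepatocyte markers (Ccn2 and Tagln) and 2 with each group fitted alone (Ccn2 and Srf), and 1 to 2 when single libraries were left out (2 without SCNx CT32). Members whose rhythm differed numbered 1 without the 4 libraries (Ccn2). Over all genes, calls in Ctrl numbered 2223 without Ctrl CT4 and SCNx CT32, 2901 without the 4 libraries, 918 by the rank test and 918 (without Ctrl CT44) to 2249 (without SCNx CT32) when single libraries were left out, against 1459. Calls in SCNx numbered 432 with DESeq2, 1384 without a minimum level and 0 to 6 when single libraries were left out (6 without SCNx CT24). Differences of rhythm numbered 589 with DESeq2, 654 without a minimum level, 504 without Ctrl CT4 and SCNx CT32, 640 without the 4 libraries and 163 (without SCNx CT16) to 466 (without SCNx CT32), against 291. Level calls numbered 14 with DESeq2 and 0 to 3 when single libraries were left out (3 without SCNx CT32). Of the 45 pairs of members 3 passed in SCNx alone, and 5 without SCNx CT44, a setting added after the data had been seen. The level difference of Acta2 turned to 0.16 with limma and 0.14 with circadian time as a block, and ran from -0.17 (without SCNx CT44) to 0.31 (without Ctrl CT28). That of Vcl ran from -0.027 (without SCNx CT32) to 0.084 (without SCNx CT20). Without mitochondrial genes in the library size, the log2 difference of night and day in KO was 0.35 for Actb and 0.20 for Actg1, against 0.30 and 0.14. The cause of these shifts was not tested. The labels give no replicate numbers. Pairing the groups by circadian time, in the level comparison only, called 0 genes and 0 members.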

Other observations

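Some stromal marker genes were rhythmic in Ctrl as well, where 10.7% of all genes were called. Of the 5 fibroblast markers 3 were called, the collagens Col1a1 (peak CT5.02, amplitude 0.45 ± 0.12, adjusted p = 0.0124) and Col1a2 (CT8.07, 0.18 ± 0.049, adjusted p = 0.0334) and the receptor Pdgfra (CT12.2, 0.35 ± 0.056, adjusted p = 0.00315, all edgeR). Of the 9 smooth muscle and pericyte markers tested 2 were called, the pericyte channel Kcnj8 (CT9.59, 0.66 ± 0.14, adjusted p = 0.0106) and the receptor Pdgfrb (CT7.48, 0.38 ± 0.086, adjusted p = 0.0349, both edgeR). None of the 4 endothelial markers was called. Among the 10 epithelial markers the water channel Aqp1 (CT7.07, 0.37 ± 0.053, adjusted p = 0.00539) and the channel subunit Kcne2 (CT22.1, 0.28 ± 0.029, adjusted p = 0.00324, both edgeR) were called. The authors, with other detection methods and another threshold, reported Kcne2 as rhythmic but no circadian rhythm of Aqp1 RNA, so the call of Aqp1 here differs from theirs. Of the 8 hepatocyte markers 7 were called in Ctrl and 6 for the difference, with Ctrl CT16 and SCNx CT0 as their high libraries. None of these genes was called in SCNx.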
